A study of Mus musculus with 21 samples.

Results

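Whole brown adipose tissue of BATI4KO mice was compared with that of floxed mice by RNA sequencing. All libraries labelled brown adipose tissue were taken, 5 floxed and 6 BATI4KO, which makes 11 of the 21 libraries of the series. The other 10 are of white vastus lateralis, a thigh muscle, and served here only to mark genes that are rich in muscle. Floxed mice carry the Irf4 gene with loxP sites around part of it and keep it intact. From knowledge of the study, BATI4KO is read as deletion of that floxed Irf4 gene by a Cre recombinase driven from the Ucp1 promoter, which is active in brown adipocytes. The genotype labels give neither the Cre line nor the deleted exons, and they give no age, sex, diet or housing temperature. The question of the comparison is what loss of Irf4 in brown adipocytes does to the RNA of the tissue. Whole brown fat also holds vessel, nerve and immune cells, in which this promoter is not active.

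Brown fat burns fatty acids to make heat. Noradrenaline from sympathetic nerves acts on beta-adrenergic receptors, cyclic AMP rises, lipid droplets are broken down, and the fatty acids released both fuel the mitochondria and open Ucp1, which lets protons leak back without making ATP. Irf4 belongs to the interferon regulatory factors, is best known from B and T lymphocytes, and in adipocytes is induced by fasting and cold, favours lipolysis and works with the coactivator encoded by Ppargc1a on thermogenic genes.

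Total counts were 20219479 to 41773148 per library. Levels are given as CPM, counts scaled to a common library total by the trimmed mean of M values (TMM), and differences as log2 values of BATI4KO minus floxed, with the standard error (SE). Ucp1 lay at 1401 to 7606 CPM in brown fat against a mean of 0.0966 CPM in floxed muscle, and Cidea at 589 to 1698 CPM against 0.342 CPM, so the tissue carried its defining transcripts in every library. The titles of 3 floxed and 3 BATI4KO libraries have a number of 1 digit and the other titles a number of 4 digits. The 2 styles differed in Rmrp, a noncoding RNA (299 to 1330 against 11.7 to 32.3 CPM), and the title style was a covariate of the fit. Contractile muscle genes differed as well: 38 of 44 tested had an unadjusted p under 0.05 and higher values in BATI4KO, their median log2 difference was 2.54, and their summed level was 505 to 2056 CPM in floxed and 1143 to 28022 CPM in BATI4KO libraries, with the highest in KO_3. Of all 1204 genes that were higher at an unadjusted p under 0.05, 308 were muscle-rich, which is used here for genes over 4 times higher in floxed muscle than in floxed brown fat. No pair of libraries of one genotype agreed within sampling noise, but the labels leave out which libraries come from different animals, so the p-values rest on spread between libraries, which may be technical. In whole tissue, fewer cells of a type and less RNA per cell cannot be told apart.

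Of 16051 genes tested, 7 (0.0436%) passed edgeR's quasi-likelihood test with an adjusted p under 0.05, 3 higher and 4 lower in BATI4KO. Irf4 itself was at 28.0, 30.7, 59.8, 56.1 and 23.9 CPM in the floxed libraries FX_1, FX_2, FX_3, FX_5497 and FX_5503, named as in their titles, and floxed values are given in this order throughout. It was at 6.57 to 8.10 CPM in BATI4KO, with a median of 7.22 CPM. It fell by 2.45 on the log2 scale (SE 0.24; edgeR adjusted p = 0.0026). The 6 BATI4KO libraries were close to each other, and FX_3 and FX_5497 were the highest of all. The remaining transcript cannot be assigned to a cell type in whole tissue.

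Gpr81, now also called Hcar1, is the receptor through which lactate restrains lipolysis. It was at 17.1, 13.4, 28.1, 14.6 and 17.0 CPM in floxed and at 33.5 to 84.8 CPM (median 53.7) in BATI4KO libraries, and it rose by 1.74 on the log2 scale (SE 0.26; edgeR adjusted p = 0.0443). The genotypes did not overlap, and FX_3, the highest floxed library, lay next to the lowest BATI4KO library. Adam12, a membrane-bound metalloprotease of adipocyte precursors and other mesenchymal cells, was at 255, 219, 178, 473 and 417 CPM against 74.0 to 154 CPM (median 102). It fell by 1.52 on the log2 scale (SE 0.20; edgeR adjusted p = 0.034), and its highest floxed values were those of the 2 libraries with numbers of 4 digits. Fmo2, a flavin-containing monooxygenase that oxidises sulphur and nitrogen compounds, was at 34.0, 34.2, 42.4, 45.7 and 36.6 CPM against 17.1 to 26.6 CPM (median 20.2), and fell by 0.89 on the log2 scale (SE 0.13; edgeR adjusted p = 0.0443). Lrrc7, a scaffold protein best known from synapses, was at 0.395 to 0.610 CPM in floxed and lower, at 0.0925 to 0.212 CPM, in BATI4KO libraries. Its whole difference lies under 1 CPM. edgeR's filter on expression can be met by 1 genotype alone, so Lrrc7 may have been tested only because of its floxed values. A filter of 1 CPM in 5 libraries leaves it out, and DESeq2 gave it no adjusted p. Limch1, an activator of nonmuscle myosin, was at 20.5, 21.5, 18.8, 13 and 14.5 CPM against 28.7 to 34.9 CPM (median 32.2). It rose by 0.91 on the log2 scale (SE 0.12; edgeR adjusted p = 0.0279), and it is muscle-rich, with a mean of 128 CPM in floxed muscle. Nthl1, a glycosylase that removes oxidised bases from DNA, rose from 1.05 to 1.78 CPM to 2.47 to 2.97 CPM. The plot of single genes by library shows these 7 genes beside 3 other regulators of lipolysis.

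For these 7 genes the genotypes did not overlap over all libraries, so their directions could not differ within a title style. Only the sizes of the differences could, and the calls rested on the whole set of libraries. Irf4 differed by -2.43 within 1-digit and by -2.48 within 4-digit title numbers, Gpr81 by 1.58 and 1.95, Adam12 by -1.14 and -1.97, Fmo2 by -0.81 and -0.98, Limch1 by 0.68 and 1.22 and Nthl1 by 0.88 and 1.22. Lrrc7, too low to test within 1-digit numbers, differed by -2.28 within 4-digit numbers. None of the 7 passed within 1 style alone, and the smallest edgeR adjusted p there was 0.057. Irf4 passed whichever single library was left out, and with a muscle score as covariate it was the one gene that passed (edgeR adjusted p = 0.0046), with Gpr81 next of the 7 (log2 2.02, edgeR adjusted p = 0.0693). Without KO_1, KO_5492, FX_1 or FX_5497 Irf4 was the one gene that passed, and without FX_3 16 genes did.

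**Figure D1:**
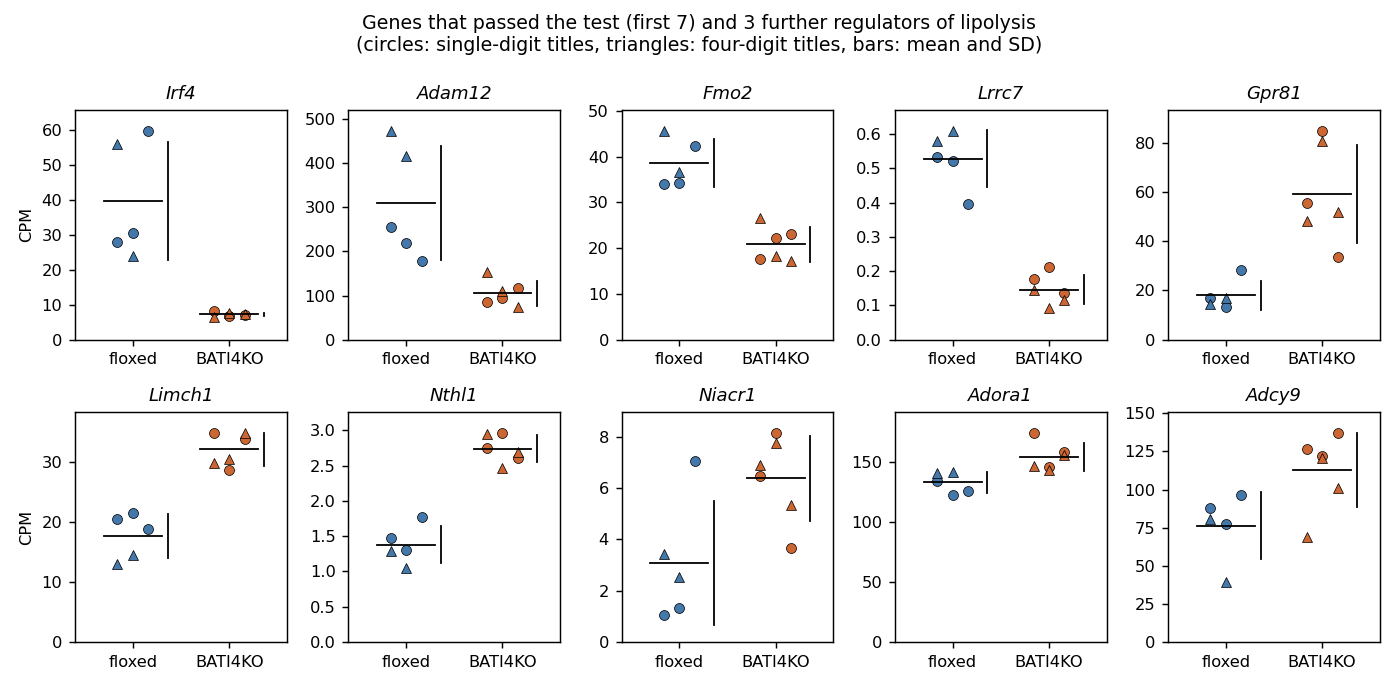
Levels in CPM (vertical axes, each from 0) of the 7 genes that passed and of Niacr1, Adora1 and Adcy9, which did not, in 5 floxed and 6 BATI4KO libraries. Each point is a library (circles: title numbers of 1 digit, triangles: of 4 digits), the horizontal bar is the mean and the vertical bar 1 SD, and for the 7 passing genes no point of one genotype reaches into the range of the other.

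Promoter windows are shown because members of the Irf4 family bind DNA through a short core, and the genes that passed moved in both directions when Irf4 was lost. RefSeq (GRCm38.p6) gave windows of 250 bases before the annotated start for 6 of the 7 genes, 9 windows in all. The core searched was AANNGAAA on both strands. It was found in 2 of the 9 windows (22.2%), against 16.9% of the 12844 windows of all genes tested. The matches lie in 1 of 2 windows of Fmo2, which fell, and in 1 of 3 windows of Limch1, which rose. No window of Irf4, Gpr81, Lrrc7 or Nthl1 holds these letters. The partner motif TGANTCA of AP-1 was in none of the 9 windows and in 4.79% of those of all genes tested. The windows with a match follow, read 5′ to 3′ on the strand of the gene with the matches in capitals. Both matches of each are on the opposite strand, so the letters printed are the reverse complement of the core.
Fmo2, chr1:162898759-162899008, minus strand: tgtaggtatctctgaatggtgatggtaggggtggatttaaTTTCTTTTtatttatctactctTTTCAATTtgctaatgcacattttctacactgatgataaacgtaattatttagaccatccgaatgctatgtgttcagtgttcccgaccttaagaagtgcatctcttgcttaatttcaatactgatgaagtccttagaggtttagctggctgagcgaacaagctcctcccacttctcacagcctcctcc
Limch1, chr5:66857219-66857468, plus strand: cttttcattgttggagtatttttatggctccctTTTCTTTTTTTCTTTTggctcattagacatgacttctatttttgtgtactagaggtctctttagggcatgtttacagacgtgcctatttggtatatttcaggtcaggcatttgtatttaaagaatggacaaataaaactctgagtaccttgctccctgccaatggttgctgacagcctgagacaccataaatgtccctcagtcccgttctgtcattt
In Fmo2 the matches start 210 and 188 bases before the start site. In Limch1 they start 217 and 209 bases before it and lie side by side in a run of pyrimidines. A match of these letters is a description of the sequence and was not tested for binding.

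Past the genes that passed, the differences were small and spread over many genes, so gene lists are described by how many members had an unadjusted p under 0.05 and by the median difference of their members. Among all genes tested, 7.50% were higher and 7.24% lower in BATI4KO at an unadjusted p under 0.05, and the median log2 difference was -0.0071. Of all differences 51.2% were below 0, and counts of signs in a list are to be read against that share. Members of a list were measured in the same libraries, so their signs are not separate observations. There were 67 lists of pathway and cell type genes, with 1520 different genes tested. Of these lists, 43 had a median below 0 and 24 above it. The sign depended on the libraries used for many of them: 28 lists had a median below 0 and 16 above 0 in both title styles, and 23 had opposite signs in the styles. Scaling by library totals alone moved the median of all genes to 0.13 and the share of genes under 0.05 that were higher from 50.9% to 92.0%, so list medians under that scaling are to be read against 0.13. In 14 lists over 20% of the tested members were lower at an unadjusted p under 0.05, and in 3 lists over 20% were higher. Such counts depend on single libraries and on the fit. Leaving out 1 library at a time gave 4 to 21 lists with over 20% lower (4 without FX_5503, 21 without FX_5497). It gave 3 to 8 with over 20% higher (8 without FX_3), while the share of all genes that were lower was 4.2% to 8.7%. Without the title-style covariate 0 lists had over 20% lower and 3 over 20% higher, where 3.32% of all genes were lower and 5.06% higher. With library totals these numbers were 1 and 18, where 1.5% of all genes were lower and 17.3% higher. With a muscle score as covariate they were 3 and 2, where 3.33% of all genes were lower and 3.4% higher. The plot of shares by list shows the 28 lists that had at least 5 members at an unadjusted p under 0.05.

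**Figure D2:**
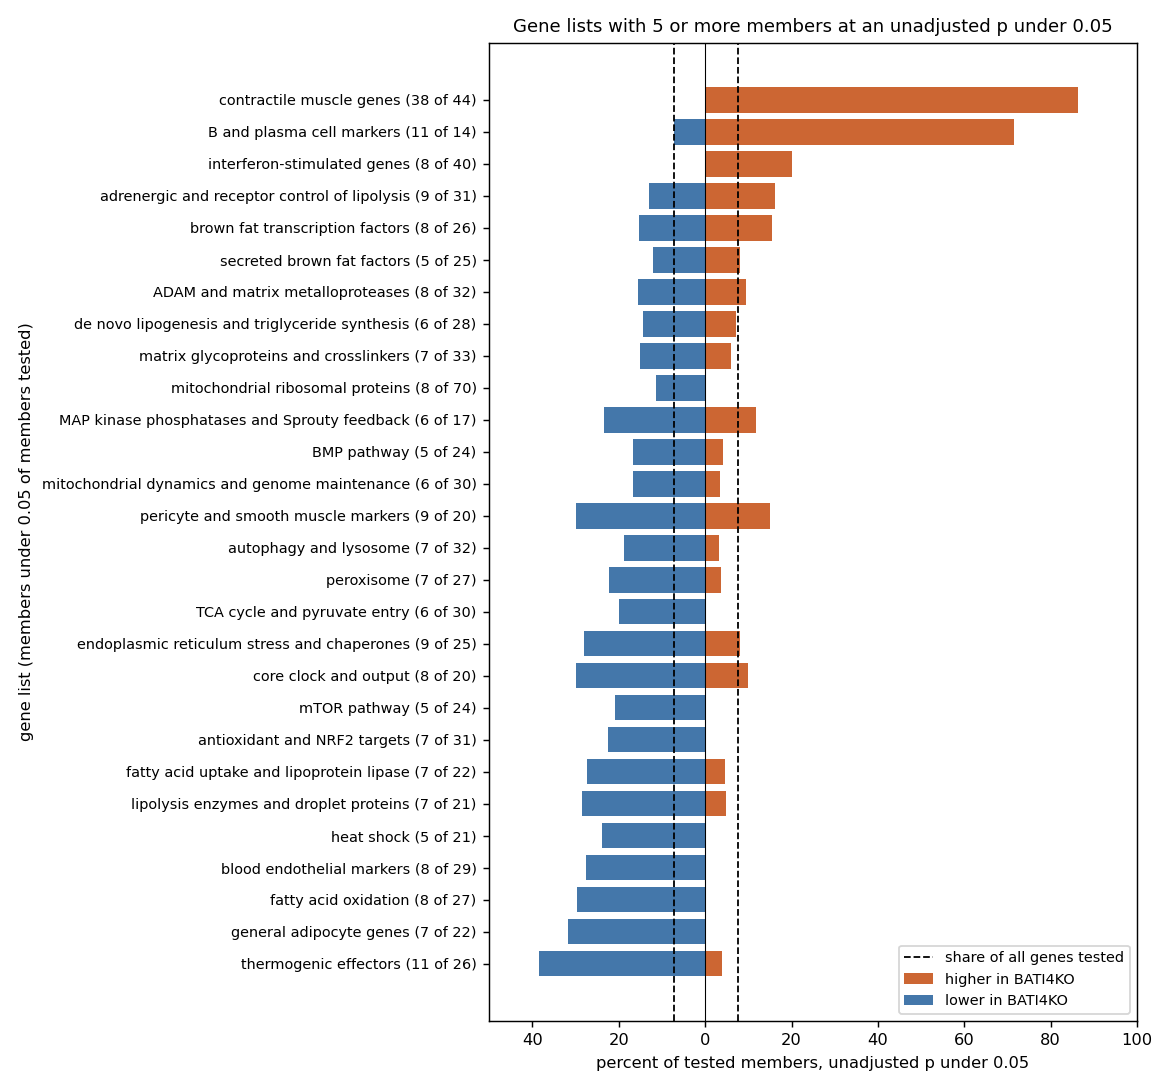
Percent of the tested members of each gene list with an unadjusted p under 0.05 in edgeR's test (horizontal axis; orange to the right, higher in BATI4KO; blue to the left, lower), for the 28 lists with at least 5 such members, with members under 0.05 and members tested in brackets. The dashed lines mark the shares of all genes tested, 7.50% higher and 7.24% lower; contractile muscle genes and B and plasma cell markers reach farthest right and thermogenic effectors farthest left.

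**Figure D3:**
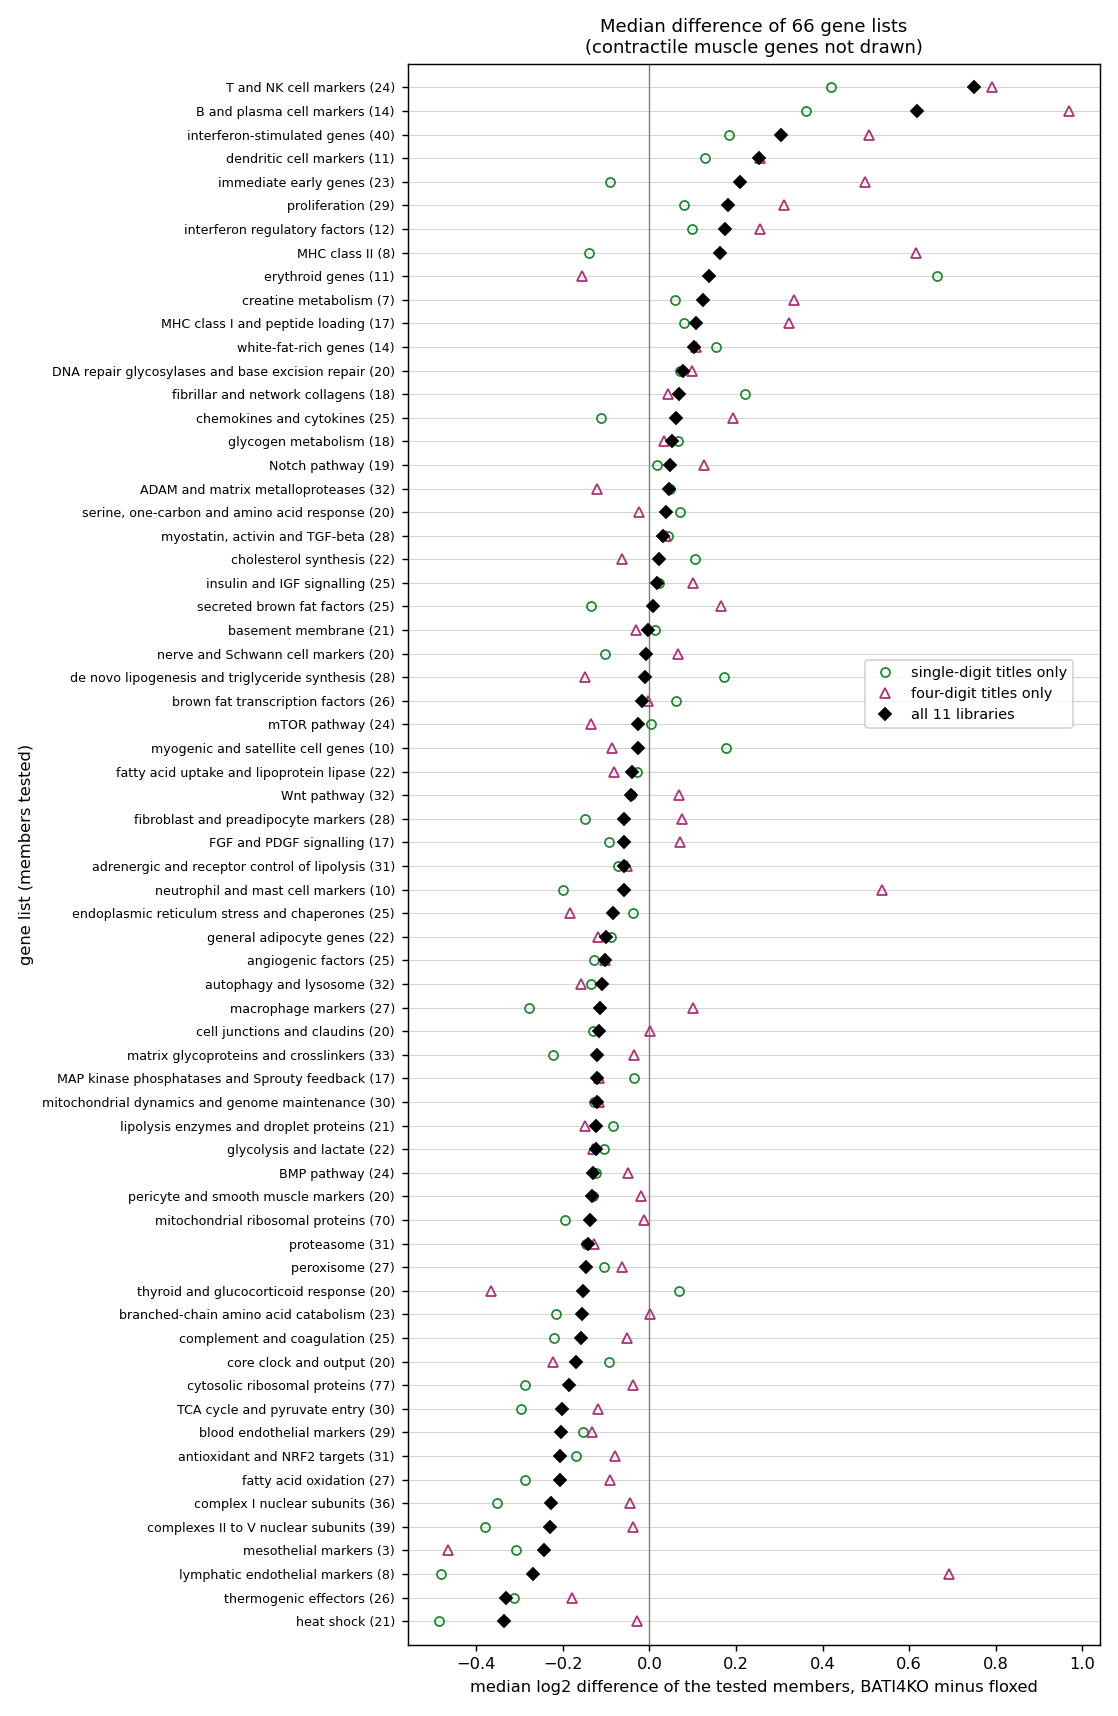
Median log2 difference (horizontal axis, BATI4KO minus floxed) of the tested members of 66 gene lists, for all 11 libraries (black diamonds), for title numbers of 1 digit only (green circles) and of 4 digits only (purple triangles). The black diamonds of lymphocyte and interferon lists lie highest and those of thermogenic and heat shock lists lowest, an order that circles and triangles do not keep, and where circle and triangle lie on different sides of 0 the sign depends on the title style; contractile muscle genes, with a median of 2.54, are not drawn.

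Receptors and enzymes that set the pace of lipolysis were mixed around Gpr81. Of 31 tested, 5 were higher and 4 lower at an unadjusted p under 0.05, with a median of -0.06 that became 0.08 with library totals. Without FX_1, 8 were lower, without FX_5497 2, and without FX_2 3 were higher. Beside Gpr81, 2 other receptors coupled to inhibition of adenylyl cyclase were among those higher, both named after their values were seen. Niacr1, the receptor for nicotinic acid and beta-hydroxybutyrate and the genomic neighbour of Gpr81, was at 1.04, 1.31, 7.07, 3.41 and 2.55 CPM in floxed and at 3.65 to 8.16 CPM (median 6.67) in BATI4KO libraries. Its log2 difference of 1.08 (SE 0.42) did not pass (edgeR adjusted p = 0.265), and FX_3, also the highest floxed library for Gpr81, lay within the BATI4KO range. Adora1, the adenosine A1 receptor, was at 135, 123, 126, 141 and 142 CPM against 143 to 175 CPM (median 151). The genotypes did not overlap, but the difference was small (log2 0.21, SE 0.08, edgeR adjusted p = 0.26). Adcy9, an adenylyl cyclase, was at 87.8, 77.3, 96.4, 80.6 and 39.4 CPM against 69.2 to 137 CPM (log2 0.62, SE 0.18, edgeR adjusted p = 0.189). Rgs2, which shortens G protein signals and was named after its values were seen, was at 129, 118, 291, 41.6 and 74.9 CPM against 199 to 330 CPM (log2 1.20, edgeR adjusted p = 0.197), with FX_3 again inside the BATI4KO range. Those lower were Prkar1a, a regulatory subunit of protein kinase A (log2 -0.22), Pde3b and Pde4d, phosphodiesterases that break down cyclic AMP (log2 -0.31 and -0.40), and Adcy4 (log2 -0.39). Adrb3, the beta-adrenergic receptor of adipocytes, differed by 0.04 on the log2 scale (edgeR adjusted p = 0.968).

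Genes of heat production were mostly lower in BATI4KO, but none passed. Of 26 thermogenic effectors tested, 22 had a negative difference and 10 (38.5%) were lower at an unadjusted p under 0.05, with a median of -0.33. Only Ckmt2, a muscle-rich mitochondrial creatine kinase, was higher at that level. Without the title-style covariate 5 were lower. Ucp1 was at 3026, 2693, 2207, 3452 and 7606 CPM in floxed and at 1401 to 4468 CPM (median 2412) in BATI4KO libraries (log2 difference -0.66, SE 0.21, edgeR adjusted p = 0.203). FX_5503 stood above all other libraries, and most BATI4KO libraries lay inside the floxed range. Gyk, the glycerol kinase that lets brown fat reuse glycerol, was at 585, 508, 341, 840 and 1434 CPM against 239 to 628 CPM (median 341) and differed by -0.98 (SE 0.22, edgeR adjusted p = 0.143). Acot2, a mitochondrial acyl-CoA thioesterase, differed by -0.54 (SE 0.14, edgeR adjusted p = 0.162). Dio2, which activates thyroid hormone, was at 553, 538, 249, 1392 and 1399 CPM against 199 to 770 CPM (log2 -0.80, edgeR adjusted p = 0.228). Elovl3, an elongase induced by cold and named after its values were seen, was at 17.5, 6.33, 6.82, 92.5 and 94.8 CPM against 3.51 to 57.9 CPM (log2 -1.18, edgeR adjusted p = 0.206). Dio2 and Elovl3 were several times higher in the floxed libraries with numbers of 4 digits than in the other floxed libraries, and their genotypes overlapped. The median of the list stayed below 0 in every alternative run. It was -0.34 with RLE, -0.29 with upper-quartile scaling and -0.19 with library totals. Leaving out single libraries gave -0.37 to -0.20, and the title styles alone gave -0.31 and -0.18. With a muscle score as covariate it was -0.22, and 2 members were lower at an unadjusted p under 0.05, where 3.33% of all genes were.

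The factors that set brown fat identity were mixed. Of 26 tested, 4 were higher and 4 lower at an unadjusted p under 0.05, Irf4 among the lower. Without KO_5492 or KO_5494, 2 were higher and 1 lower, and 1 was lower without KO_2, KO_5414, FX_5497 or FX_5503. Ebf2, a factor that marks brown precursors and mature cells, was at 82.0, 73.8, 81.1, 71.8 and 64.6 CPM against 71.6 to 136 CPM (log2 0.53, SE 0.15, edgeR adjusted p = 0.18). Prdm16 differed by 0.35 (edgeR adjusted p = 0.398), Ppargc1a by -0.02 (edgeR adjusted p = 0.982) and Cidea by -0.16 (edgeR adjusted p = 0.531).

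Mitochondrial lists lay below 0 with small differences. All 36 nuclear genes of complex I had a negative difference, with a median of -0.23, and 38 of 39 genes of complexes II to V did, also with a median of -0.23, and 2 members of each were lower at an unadjusted p under 0.05 (5.56% and 5.13%, against 7.24% of all genes). Single libraries set these counts: 21 and 22 members were lower without FX_5497, where 8.7% of all genes were, 11 and 9 without KO_5414, 8 and 4 without KO_2, and 1 each without KO_1, KO_3, KO_5492, FX_3 or FX_5503. Within title numbers of 1 digit 13 and 11 were lower, and within 4 digits none, where 3.69% and 6.56% of all genes were. Within title numbers of 1 digit the medians were -0.35 and -0.38, and within 4 digits both were -0.04. Ndufb7, a complex I subunit, was at 51.1, 47.8, 47.8, 73.8 and 92.6 CPM against 35.2 to 79.7 CPM (log2 -0.30, SE 0.09, edgeR adjusted p = 0.193), with both genotypes higher under 4-digit numbers. Cox5b, of complex IV, was at 210 to 328 against 161 to 313 CPM (log2 -0.31, SE 0.10, edgeR adjusted p = 0.209). Of 27 genes of fatty acid oxidation, 26 were below 0 and 8 (29.6%) lower at an unadjusted p under 0.05, among them Acsl1, which activates fatty acids, at 3061, 3202, 2712, 4275 and 5839 CPM against 2169 to 3640 CPM (log2 -0.43, SE 0.12, edgeR adjusted p = 0.177). Of 30 genes of the TCA cycle and pyruvate entry, 6 (20%) were lower. Pdk4, the kinase that shuts pyruvate out of the cycle, was at 2284, 2975, 3859, 3111 and 3162 CPM against 1537 to 2522 CPM (log2 difference -0.54, SE 0.16, edgeR adjusted p = 0.193), and Idh3a differed by -0.29 (edgeR adjusted p = 0.208). Mitochondrial ribosomal proteins had 8 of 70 lower (11.4%), with a median of -0.14 that became 0.0033 with library totals. Without FX_5497 the lower members numbered 17 for fatty acid oxidation, 15 for the TCA cycle and 30 for mitochondrial ribosomal proteins. They numbered 5, 2 and 1 without FX_5503, and 2, 2 and 0 without the title-style covariate. The medians of complex I, complexes II to V, fatty acid oxidation and the TCA cycle stayed below 0 with RLE, upper-quartile and library-total scaling, at -0.09, -0.09, -0.07 and -0.06 with library totals.

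Lipid handling outside the mitochondria was lower in part of its genes. Among 22 general adipocyte genes 7 (31.8%) were lower at an unadjusted p under 0.05 and none higher, with a median of -0.10 that became 0.03 with library totals, and 3 were lower without FX_5503. Cd36, the fatty acid transporter, was at 2604, 2612, 3456, 3696 and 4638 CPM in floxed and at 1977 to 3438 CPM (median 2620) in BATI4KO libraries (log2 difference -0.44, SE 0.12, edgeR adjusted p = 0.172). Lpl, the lipoprotein lipase, was at 4310, 3673, 4379, 6280 and 5951 CPM against 3082 to 4646 CPM (log2 -0.38, SE 0.14, edgeR adjusted p = 0.247). Gpihbp1, which carries the lipase across the capillary wall, and Fabp4, a fatty acid carrier, differed by -0.38 and -0.40. Lpl, Gpihbp1 and Fabp4 were named after their values were seen. Of 21 lipolysis enzymes and droplet proteins, 6 (28.6%) were lower: Fitm2, Cidec, Abhd5, Plin2, Cideb and Ces1d, at -0.30 to -0.53. Abhd5 is the activator of the triglyceride lipase and Plin2 coats droplets. The median of this list was -0.12, and 0.02 with library totals. Synthesis genes were split: Srebf1, the master factor of fatty acid synthesis, was at 205, 155, 249, 149 and 197 CPM against 222 to 362 CPM (log2 difference 0.55, SE 0.16, edgeR adjusted p = 0.191), and Gpd1, which makes the glycerol backbone, differed by -0.45. The list of 28 synthesis genes had a median of -0.01, which became 0.03 with upper-quartile scaling and 0.12 with library totals.

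The circadian clock list held members in both directions. Of 20 tested, 6 (30.0%) were lower and 2 (10%) higher at an unadjusted p under 0.05, with a median of -0.17, and -0.03 with library totals. Cry1, a repressor of the clock, was at 18.5, 21.0, 19, 26.1 and 22.8 CPM in floxed and at 8.17 to 16.2 CPM (median 12.8) in BATI4KO libraries. The genotypes did not overlap, yet the difference did not pass (log2 -0.77, SE 0.17, edgeR adjusted p = 0.143). Cry2, its paralog, was at 60.1, 55.2, 57.4, 52.1 and 38.5 CPM against 29.4 to 45.5 CPM (log2 -0.42, SE 0.11, edgeR adjusted p = 0.176). Per2, their partner, was at 117, 148, 87.2, 98.6 and 79.2 CPM against 55.8 to 104 CPM (log2 -0.46, edgeR adjusted p = 0.191). Arntl, the activator of the loop, was at 4.43, 2.94, 2.42, 4.47 and 19.3 CPM against 2.31 to 3.04 CPM (log2 -1.15, edgeR adjusted p = 0.222), so its difference rests largely on FX_5503. Dbp, a clock output factor, was at 38.1, 38.3, 33.3, 16.3 and 16.3 CPM against 32.7 to 42.3 CPM (log2 0.53, edgeR adjusted p = 0.207). Here the 2 floxed libraries with 4-digit numbers alone were low. Per2, Arntl and Dbp were named after their values were seen, and the labels give no time of day of sampling, so a difference in time cannot be told apart from genotype.

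**Figure D4:**
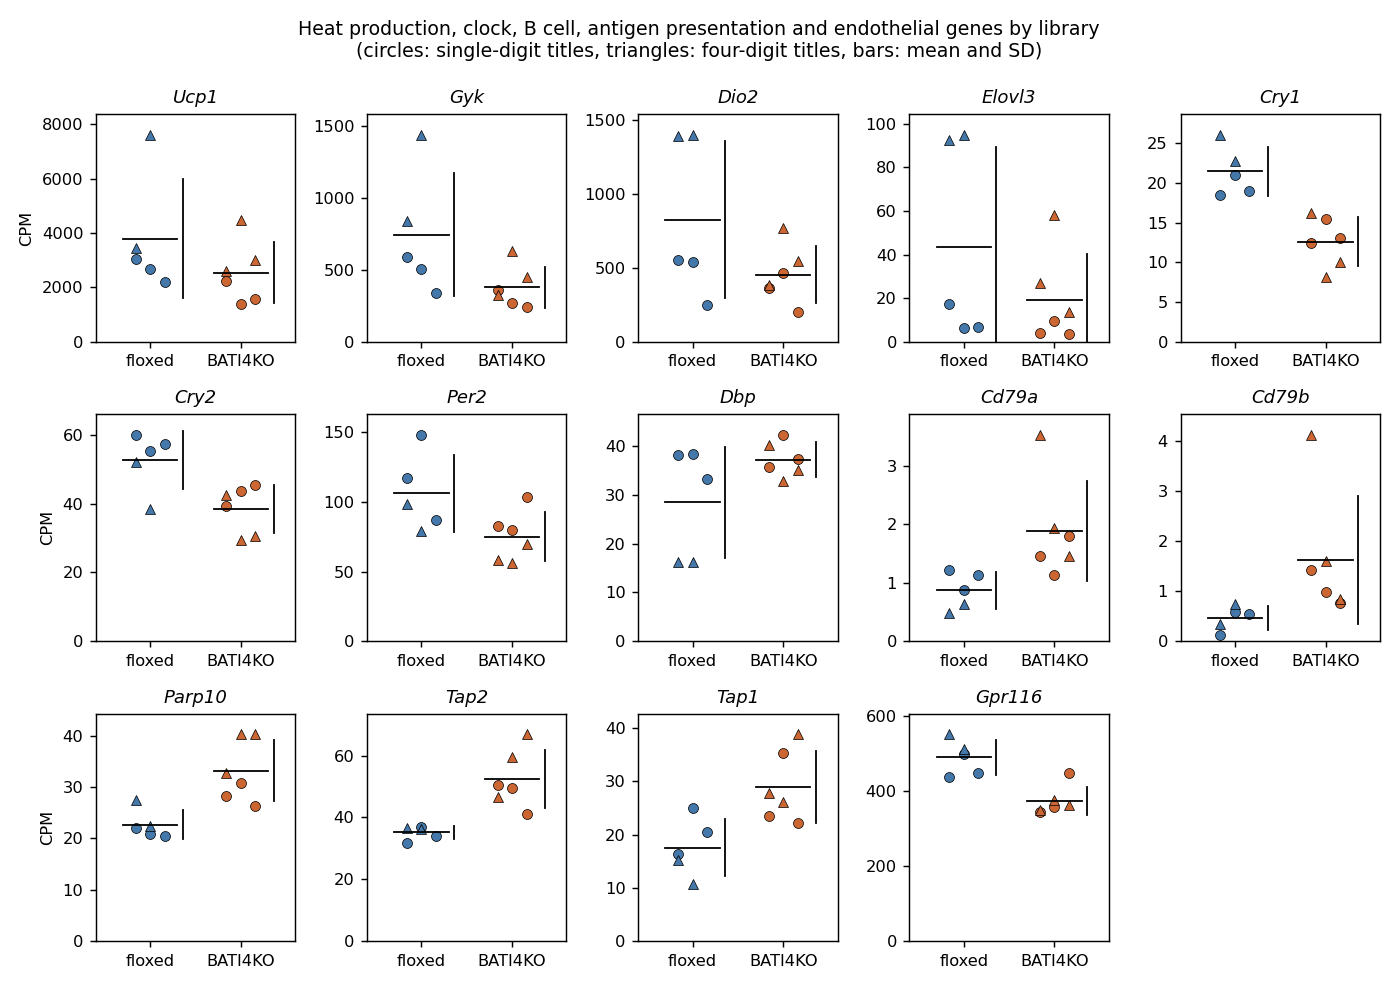
Levels in CPM (vertical axes, each from 0) of 14 genes of heat production, the clock, B cells, antigen presentation and the endothelium in 5 floxed and 6 BATI4KO libraries, none of which passed. Each point is a library (circles: title numbers of 1 digit, triangles: of 4 digits), with the mean and 1 SD, cut at 0 for Elovl3; Cry1, Cd79b and Tap2 do not overlap between genotypes, while Ucp1, Dio2 and Elovl3 do.

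Genes that keep proteins folded and cells free of oxidants were lower in part. Of 21 heat shock genes, 5 (23.8%) were lower at an unadjusted p under 0.05, with a median of -0.33, but this was -0.49 within 1-digit and -0.03 within 4-digit title numbers, and 13 were lower without FX_5497 and none without FX_5503. Hspa8, the constitutive chaperone, was at 1011, 1439, 674, 1212 and 2279 CPM against 636 to 1313 CPM (log2 -0.58, SE 0.19, edgeR adjusted p = 0.204). Of 25 genes of endoplasmic reticulum stress, 7 (28.0%) were lower, among them Atf6, a stress sensor (log2 -0.31), and Pdia3, a disulphide isomerase, whose genotypes did not overlap (106 to 118 against 89.1 to 105 CPM). Xbp1, another factor of that response, was at 43.4 to 83.5 against 61.8 to 114 CPM (log2 0.52). The median of this list was -0.08, and 0.05 with library totals, and 4 members were lower without FX_5503. Among 31 antioxidant genes 7 (22.6%) were lower and none higher, with 13 lower without KO_2 and 4 without KO_3 or FX_5503. Fmo1, a paralog of Fmo2, was at 484, 350, 416, 548 and 477 CPM against 299 to 416 CPM (log2 -0.42, SE 0.11, edgeR adjusted p = 0.172). In the list of base excision repair, which holds Nthl1, 4 of 20 were higher (20%) and none lower: Nthl1, Mpg (log2 0.33), Neil1 (0.31) and Xrcc1 (0.22). Without KO_1, 2 were higher. The 77 cytosolic ribosomal protein genes all had a negative difference, with a median of -0.19, and none reached an unadjusted p under 0.05. Without FX_1, 13 of them were lower at that level, and without FX_5497 5, while without FX_3 the median was -0.03. Their median was -0.29 within 1-digit and -0.04 within 4-digit title numbers and -0.04 with library totals. Many of them have processed pseudogenes that could share reads.

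Among the cell types of the tissue, the B and plasma cell list stood above the share of all genes that were higher in BATI4KO, although no member passed. Of 14 B and plasma cell markers tested, 10 (71.4%) were higher at an unadjusted p under 0.05, with a median of 0.62. The count was 3 without FX_5503, 4 without FX_5497, 5 without KO_5414 and 6 without KO_2 or KO_5494. It was 7 to 9 without any 1 of the others. Within 1-digit title numbers it was 2 and within 4-digit numbers 10, where 3.91% and 7.96% of all genes were higher. edgeR's filter on expression can be met by 1 genotype alone, so low markers can enter through the libraries where they are high. With a filter of 1 CPM in 5 libraries the median was 0.59 and the count 7, where 8.03% of all genes were higher. The one lower, Ebf1, is also a factor of adipocytes and was at 91.7 to 193 CPM, far above the others. Cd79b, a chain of the B cell receptor, was at 0.126, 0.588, 0.544, 0.341 and 0.748 CPM in floxed and at 0.766 to 4.14 CPM in BATI4KO libraries (log2 difference 1.68, SE 0.47, edgeR adjusted p = 0.188), without overlap. Its partner Cd79a, named after its values were seen, was at 0.478 to 1.22 against 1.13 to 3.53 CPM (log2 1.12, SE 0.35, edgeR adjusted p = 0.197). KO_5414 was the highest library for both. The summed level of the list without Ebf1 was 17.2, 18.3, 16.2, 13.9 and 13.5 CPM in floxed and 23.4, 25, 20.7, 43.3, 23.7 and 21.1 CPM in the BATI4KO libraries KO_1, KO_2, KO_3, KO_5414, KO_5492 and KO_5494. This sum was higher in every BATI4KO than in every floxed library. With Ebf1 included the sums overlapped, at 127 to 211 CPM in floxed and 135 to 170 CPM in BATI4KO libraries. Of the 14 single markers tested 1, Cd79b, was higher without overlap, which held for 0.573% of all genes. The mean log2 CPM of the list did not overlap between genotypes, which held for 2 of the 67 lists, the other being cell junctions and claudins. Among markers too low to test, Pax5 had 12 counts over the floxed and 59 over the BATI4KO libraries, Blk 7 and 70, and Faim3 15 and 112. The other 3 were not higher in this way: Vpreb3 had 28 and 24, 2010001M09Rik 14 and 17 and the plasma cell marker Tnfrsf17 8 and 3. The median was 0.36 within 1-digit and 0.97 within 4-digit title numbers, 0.75 with library totals and 0.46 to 0.78 when single libraries were left out. With a muscle score as covariate it was 0.57, and 4 members were higher at an unadjusted p under 0.05, where 3.4% of all genes were. Muscle genes were also higher in BATI4KO, by the values given at the start, and the part of this in the B cell result was not tested beyond that fit.

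T and NK cell markers were all above 0, 24 of 24, with a median of 0.75, but the spread between libraries was large and 2 (8.33%) were higher at an unadjusted p under 0.05, against 7.50% of all genes. That count was 11 without KO_5492, 6 without KO_3, 5 without FX_3 and 4 without KO_1, and the mean log2 CPM of the list overlapped between genotypes (-1.06 to 0.09 in floxed, -0.54 to 0.80 in BATI4KO). Cd27 was at 2.2, 1.44, 2.03, 1.13 and 0.942 CPM against 1.54 to 3.17 CPM (log2 0.76, SE 0.17, edgeR adjusted p = 0.145). Lck, the proximal kinase of the T cell receptor, was at 0.251 to 0.751 against 0.586 to 4.25 CPM (log2 1.52, edgeR adjusted p = 0.201). Cd3g and Cd8b1, too low to test, had 24 and 27 counts over the floxed and 106 and 116 over the BATI4KO libraries, and Tcrb had 2 and 1. The median was 0.42 within 1-digit and 0.79 within 4-digit title numbers, 0.37 without KO_5414 and 0.41 with the muscle score. With a filter of 1 CPM in 5 libraries it was 0.42 too, and 1 member was higher. Low T cell markers can also meet edgeR's filter through 1 genotype alone, and the signs of this list are to be read with that limit. Of 11 dendritic cell markers 2 were higher, Ccr7 and Itgax, with a median of 0.25. Macrophage markers did not share this: of 27 tested, 1 was higher and 1 lower, Cx3cr1 and Lyve1, and the median was -0.11 over all libraries, -0.28 within 1-digit and 0.10 within 4-digit title numbers and 0.03 with library totals.

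Interferon-stimulated genes were above 0 in 39 of 40 tested, with a median of 0.30, and 8 (20%) were higher at an unadjusted p under 0.05 and none lower. Parp10, an ADP-ribosyltransferase, was at 22.1, 20.9, 20.5, 27.5 and 22.4 CPM in floxed and at 26.4 to 40.3 CPM (median 31.9) in BATI4KO libraries (log2 difference 0.51, SE 0.09, edgeR adjusted p = 0.139). Ddx58, the sensor RIG-I, was at 35.9, 40.2, 41.1, 28.5 and 29.7 CPM against 39.1 to 49.7 CPM (log2 0.38, SE 0.10, edgeR adjusted p = 0.162). Cxcl10, a chemokine that draws T cells, was at 3.49, 4.37, 3.66, 2.12 and 1.72 CPM against 2.49 to 7.94 CPM (log2 0.88, SE 0.24, edgeR adjusted p = 0.18). The mean log2 CPM of the list was 2.86 to 3.58 in floxed and 3.14 to 3.88 in BATI4KO libraries, so the genotypes overlapped. The median was 0.18 within 1-digit and 0.51 within 4-digit title numbers, 0.44 with library totals and 0.35 with the muscle score. In these fits 2, 14, 21 and 6 members were higher at an unadjusted p under 0.05. Of all genes, 3.91%, 7.96%, 17.3% and 3.4% were higher in the same fits, so the 4 counts are not on 1 scale. Without FX_3, 16 were higher, without KO_1 15, and without KO_2, FX_1, FX_5497 or FX_5503 5 were. Of the genes that load peptides onto MHC class I, Tap2, a subunit of the peptide transporter, was at 31.7, 37.0, 34.1, 36.7 and 36.2 CPM against 41.1 to 66.9 CPM (log2 0.55, SE 0.11, edgeR adjusted p = 0.139), without overlap. Its partner Tap1 was at 16.4, 25, 20.5, 15.1 and 10.8 CPM against 22.1 to 38.9 CPM (log2 0.77, SE 0.21, edgeR adjusted p = 0.182). In the Irf4 family, 11 of 12 genes were above 0 and Irf4 alone was below it, but no other member had an unadjusted p under 0.05.

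**Figure D5:**
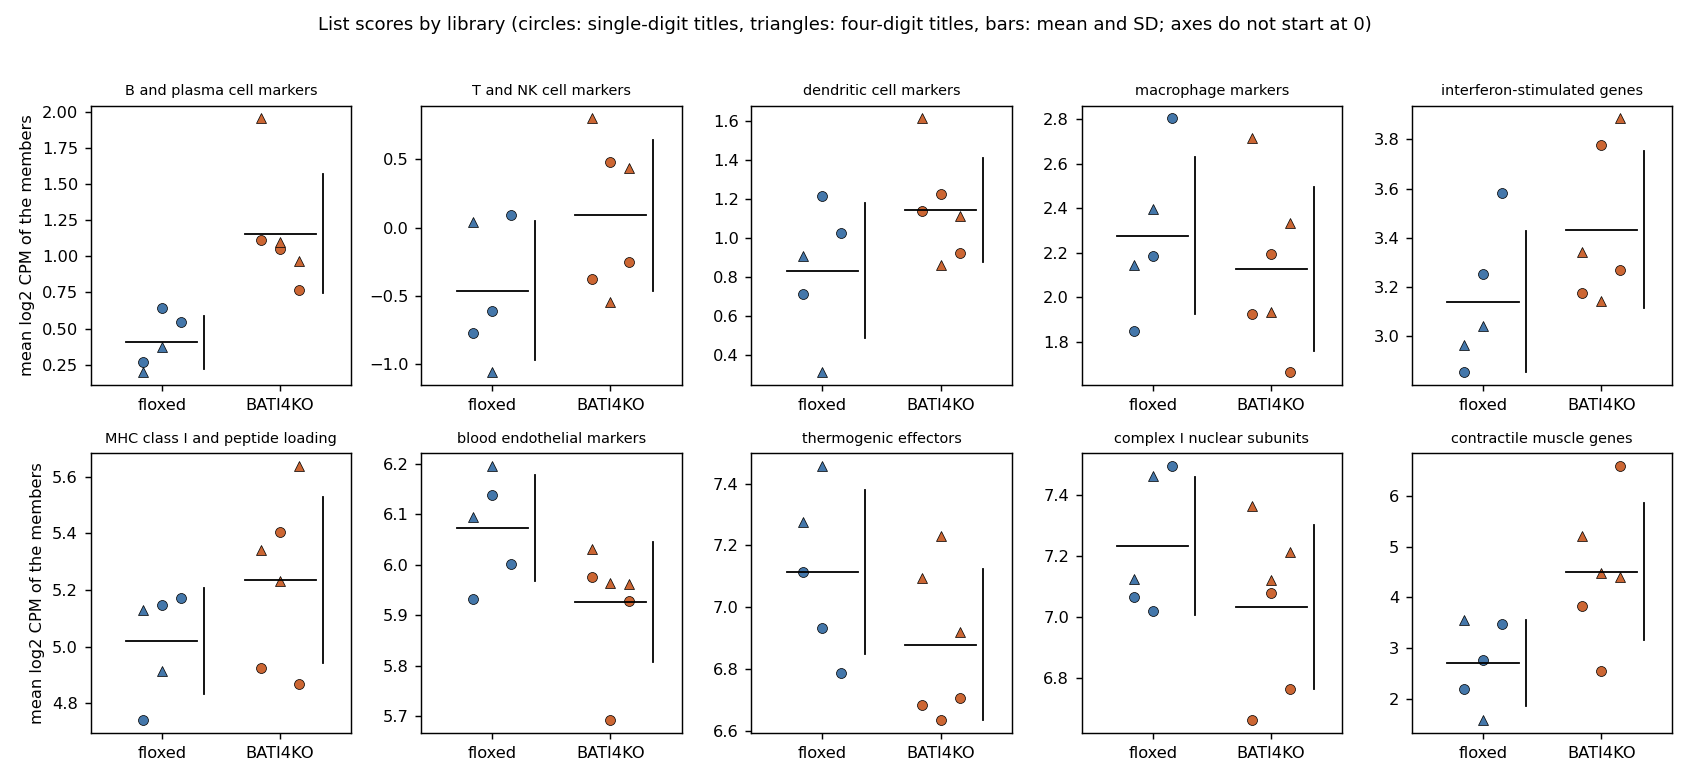
Mean log2 CPM of the members of 10 gene lists (vertical axes, which do not start at 0) in 5 floxed and 6 BATI4KO libraries; each point is a library (circles: title numbers of 1 digit, triangles: of 4 digits), with the mean and 1 SD. The B and plasma cell list separates the genotypes with KO_5414 highest, the contractile muscle list is highest in KO_3, and the other lists drawn overlap.

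Vessel markers were lower in part. Of 29 blood endothelial markers, 8 (27.6%) were lower at an unadjusted p under 0.05 and none higher, with a median of -0.20. With library totals the median was -0.07 and 2 members were lower, where 1.5% of all genes were. With the muscle score the median was -0.21 and 6 members were lower, where 3.33% of all genes were. Without KO_2, KO_5492 or KO_5494, 3 were lower. Gpr116, an adhesion receptor of capillaries, was at 438, 497, 448, 551 and 511 CPM in floxed and at 344 to 447 CPM (median 359) in BATI4KO libraries (log2 difference -0.39, SE 0.10, edgeR adjusted p = 0.154), where only KO_3 reached the floxed range. Eltd1, a related receptor, was at 117, 139, 132, 151 and 166 CPM against 82.2 to 125 CPM (log2 -0.43, SE 0.11, edgeR adjusted p = 0.154). Pecam1 and Cdh5, markers of all endothelium named after their values were seen, differed by -0.21 (edgeR adjusted p = 0.284) and 0.06 (edgeR adjusted p = 0.833), so of these 2 defining markers 1 was lower. Fabp4, Gpihbp1, Aqp1, Ptprb and Eng were the other lower members, and Fabp4 is also an adipocyte gene. Of 20 pericyte and smooth muscle markers, 6 were lower and 3 higher, with 3 lower without FX_2 or FX_5503. Mylk, the myosin light chain kinase, was at 38.9 to 55.7 against 30.7 to 38.5 CPM (log2 -0.40), and Mcam, the adhesion molecule CD146, was at 30.3, 39.6, 45.3, 34.5 and 43.5 CPM against 50.2 to 70.3 CPM (log2 0.66, SE 0.13, edgeR adjusted p = 0.14). Neither overlapped between genotypes, and they lay in opposite directions. Fibroblast and preadipocyte markers had 1 of 28 higher and 1 lower, and nerve and Schwann cell markers 1 of 20 each, Ngfr (log2 0.95, edgeR adjusted p = 0.14) and Cdh19 (log2 -0.58).

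Matrix and junction genes were examined because Adam12 passed. Among 32 ADAM and matrix metalloprotease genes and their inhibitors, 5 were lower and 3 higher at an unadjusted p under 0.05, with a median of 0.05. Timp3, an inhibitor of these proteases, was at 258, 367, 289, 324 and 250 CPM against 122 to 254 CPM (log2 difference -0.64, SE 0.15, edgeR adjusted p = 0.146), and Timp4 differed by -0.44. Adam19, the closest relative of Adam12 here, was at 5.73 to 8.50 against 8.13 to 11.8 CPM (log2 0.46, SE 0.11, edgeR adjusted p = 0.153), in the opposite direction to Adam12. Timp4 and Adam19 were named after their values were seen. Lox, which crosslinks collagen and elastin, was at 33.4, 40.3, 49.5, 46.3 and 54.2 CPM against 21.7 to 33.4 CPM (log2 -0.73, SE 0.15). The 18 fibrillar and network collagens had no member under 0.05. Cldn1, a claudin of tight junctions, was at 7.16, 9.40, 6.52, 10.6 and 16.2 CPM against 2.05 to 4.34 CPM and differed by -1.52 (SE 0.23, edgeR adjusted p = 0.0524). The mean log2 CPM of the 20 junction genes was 3.88 to 4.04 in floxed and 3.71 to 3.87 in BATI4KO libraries, although only 2 members, Cldn1 among them, were lower at an unadjusted p under 0.05, and the median of -0.12 became 0.02 with library totals.

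Genes whose genotypes did not overlap numbered 92 higher in BATI4KO (0.573% of those tested) and 69 lower (0.430%). Among those lower that did not pass, Lonrf3, a ubiquitin ligase, was at 7.98, 7.70, 6.57, 8.29 and 10.1 CPM against 2.53 to 5.93 CPM (log2 -1.16, SE 0.20, edgeR adjusted p = 0.106). Qk, an RNA-binding protein of the STAR family, was at 924, 875, 806, 768 and 820 CPM against 548 to 699 CPM (log2 -0.44, SE 0.08). Ptp4a1, a phosphatase, differed by -0.72 and Rragc, a GTPase that signals amino acids to mTOR, by -0.43. Rragc and its regulator Fnip1 (log2 -0.38) were the 2 lowest-p members of the mTOR list, of which 5 of 24 were lower and none higher (2 lower without KO_5492, KO_5494 or FX_5503). Among those higher, Gramd1a, a cholesterol transporter of the endoplasmic reticulum, was at 38.2 to 47.0 against 50.4 to 64.5 CPM and differed by 0.48 (SE 0.09, edgeR adjusted p = 0.139). Vav2, a guanine nucleotide exchange factor, was at 17.5 to 26.0 against 27.7 to 38.2 CPM (log2 0.57, SE 0.12, edgeR adjusted p = 0.14). DESeq2 gave an adjusted p under 0.05 to 372 of 15406 genes (2.41%), 198 higher and 174 lower, and Lonrf3, Qk, Parp10, Cd36, Acsl1, Timp3 and Eltd1 were among them.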

How the data were processed

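The brown fat values are the authors' deposited counts of reads for each gene model, unnormalised, with 1 column per library, per the file headers. Per the labels' protocols, RNA was depleted of ribosomal RNA and made into libraries from random hexamers by tagmentation. The submitters' processing notes name build mm9 and list featureCounts 1.4.6, edgeR, TopHat2 2.0.14, SAMtools 0.1.19, Picard 2.2.4 and bcl2fastq 2.17.1.14 without their settings. Strand handling is not given in the sources used here, so genes that overlap on opposite strands can share reads. Of 28541 models, 1443 share a symbol with another and each was tested on its own.

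Groups were taken from the genotype labels. After edgeR's filter on expression by genotype, 16051 genes were left. With TMM scaling they were tested with glmQLFTest, the quasi-likelihood F test of edgeR 4.0.16 in R 4.3.3, with title style as covariate and Benjamini-Hochberg adjustment at 0.05. SEs are the log2 difference divided by the root of F. CPM values were computed from the deposited counts. A list score averages the log2 CPM (prior count 2) of its members, and the muscle score is that of the contractile muscle list. DESeq2 1.42.0 and limma 3.58.1 were alternatives. The list members and the lists were chosen with earlier results of these data known, so no list has a p-value.

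The rule for names took Irf4, Ucp1, all genes that passed, up to 10 genes per direction with non-overlapping genotypes, a mean of at least 1 CPM and no muscle-rich or clone-like name, and up to 2 members per list with an unadjusted p under 0.05. Other names were chosen after their values were seen. On simulated counts of 15922 genes the share of altered genes recovered was 35.8% at 1.5-fold, 68.7% at 2-fold and 98.5% at 4-fold. Of the calls on these counts 4.26% were false. Each gene was drawn on its own, without shifts shared by many genes such as the muscle signal in KO_3. These shares therefore need not hold for the real libraries. Counts are reads without molecular identifiers. Replicate libraries were checked by a chi-square test, whose smallest value per gene was 42.1. Promoter windows came from RefSeq GRCm38.p6, and no coordinates were taken from the count table. Some genes are not reported here.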

Additional observations from a re-analysis of the deposited data

Results flagged for a closer look

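In 38 of 390 groups examined (9.74%), counting each reported gene or list score in each genotype as a group, 1 library lay far from the others by Dixon's criterion, where chance gives about 1 in 20. KO_3 was that library 14 times, KO_5414 7 times, FX_5503 6 times, FX_3 4 times, FX_5497 3 times, FX_2 2 times, and FX_1 and KO_2 1 time each.

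KO_3 was highest for muscle-rich genes: Actn3 at 283 CPM, Casq1 at 126, Ckm at 492, Ckmt2 at 71.9, Pygm at 348, Ppp1r3a at 67.9, Mef2c at 69.7, Ank1 at 13.4, Atp5g1 at 18.6 and Fitm1 at 5.41 CPM, and for the myogenic list, with a mean log2 CPM of 3.06. It was also highest for Aurka, which is muscle-rich too, at 1.98 CPM. Of genes that are not muscle-rich, it was highest for Gpr116 at 448 CPM and lowest for Gramd1a at 50.4 CPM. KO_5414 was highest for Cd79b at 4.14, H2-Ob at 5.12, Lyve1 at 4.51, Acot2 at 79.4 and Ccdc3 at 142 CPM, and for the B and plasma cell list (mean log2 CPM 1.96) and the nerve and Schwann cell list (2.71). KO_2 was lowest for the blood endothelial list (5.69).

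FX_5503 was highest for Ucp1 at 7606, Pex13 at 226, Psmc2 at 58.8, Smad6 at 26.5 and Hif1a at 189 CPM and for the autophagy and lysosome list (6.41). FX_3 was highest for Gpr81 at 28.1, Ndufb2 at 91.8 and Dcn at 321 CPM and for the fibroblast list (4.81). FX_5497 was highest for Slc25a33 at 84.5 and Parp10 at 27.5 CPM and lowest for the lymphatic endothelial list (0.116). FX_2 was highest for Ccdc3 at 145 CPM and for the cell junction list (4.04), and FX_1 for Pcca at 294 CPM.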

How the results depend on the processing

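The number of genes that passed, 7, moved with the fit. It was 372 with DESeq2, 12 with voom quality weights, 3 with a filter of 1 CPM in 5 libraries, 3 with upper-quartile scaling, 1 with a muscle score as covariate, 1 without the title-style covariate and 0 within 1-digit title numbers, where 1212 genes had an unadjusted p under 0.05. Within 4-digit numbers it was 6, none of them among the 7. Leaving out single libraries gave 1 to 16 (16 without FX_3; 1 without KO_1, KO_5492, FX_1 or FX_5497; 2 without FX_2 or FX_5503; 3 without KO_5494; 4 without KO_3), and Irf4 passed each time. Without FX_3 and KO_3 together, an alternative chosen after seeing the data, 26 genes passed, the 7 included. The muscle score left Irf4 as the one gene that passed. RLE scaling, voom, library totals, no filter and leaving out muscle-rich genes gave counts within 1.5 times of 7.

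Genes higher at an unadjusted p under 0.05 numbered 1204, and 2771 with library totals, 546 with the muscle score, 624 within 1-digit title numbers and 829 to 1330 when single libraries were left out. Genes lower numbered 1162, and 240 with library totals, 534 with the muscle score, 533 without the title-style covariate, 588 within 1-digit numbers and 679 to 1404 when single libraries were left out, the lowest without FX_5503. The share of these genes that were higher, 50.9%, was 65.5% with upper-quartile scaling and 60.4% without the title-style covariate. With the muscle score, Atp5g1 went from 0.88 to -0.054 and Ppp1r3a from 2.29 to -0.090.

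Libraries with the same 1-digit number did not deviate together (correlations 0.13, -0.12 and 0.07), so the numbers were not taken as pairs. With a replicate block 2 genes passed, Irf4 among them. Of named genes under all alternatives, 3210 values kept direction and side of the threshold, 91 lost the threshold, 81 gained it and 2 changed sign. Depth limits the lymphocyte markers, most of which lie near 1 CPM, and small shifts of whole lists cannot be told apart from scaling.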
